A study of Ovis aries with 6 samples.

Results

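The solute carrier genes compared here in skin of 2 sheep breeds, 6 in number, were SLC38A2, SLC35F2, SLC25A4, SLC25A20, SLC25A17 and SLC11A1. They are carriers of amino acids, of mitochondrial and peroxisomal metabolites and of metal ions, and they were picked as a group with the breed differences of these same arrays known. The breed differences of these 6 genes are therefore given as a description, without a test. Of the 15008 probes of the array, 7 could be tied to these genes by name. All 7 passed the filter on dim signals, among 12481 probes that did. SLC25A4, SLC25A20, SLC25A17 and SLC11A1 are tied to their probes by RefSeq mRNA identifiers, with 2 probes for SLC11A1 and 1 for each of the others. The probes of SLC38A2 (A_70_P043642) and SLC35F2 (A_70_P032446) carry only a transcript assembly or expressed sequence tag identifier in the scanner files, and their gene names are those of the study's supplementary table.

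Body side skin, taken through its full thickness, gave the RNA. The sheep were 3 Aohan fine wool and 3 small tail Han animals, 12 months old and reared in pens, with 1 ram and 2 ewes in each breed. Each sheep was hybridised to its own 1-colour (Cy3) Agilent sheep array. All 3 sheep of a breed had the same sire and their arrays were scanned in 1 session, so that breed, sire family and scan session cannot be told apart. The labels do not say which sheep was the ram.

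Solute carriers are membrane proteins that move small molecules across the cell surface or the membranes of organelles. SLC38A2 brings neutral amino acids such as glutamine and alanine into the cell together with sodium, and cells are known to make more of it when amino acids run short. SLC25A4 exchanges ADP for ATP across the inner membrane of mitochondria, SLC25A20 carries fatty acids bound to carnitine across the same membrane, and SLC25A17 serves peroxisomes with cofactors. SLC11A1, known in mice for resistance to intracellular microbes, moves metal ions out of the phagosomes of macrophages. SLC35F2 belongs to a family named for nucleotide sugar transporters, and its everyday substrate is less well settled.

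Signals are given as log2 of the processed intensity relative to the 75th percentile of all probes on the same array, so that 0 stands for a probe at that percentile. Changes are Aohan minus small tail Han on this scale, with the standard error (SE) of a linear model fitted with limma over all probes. A probe passed when its Benjamini-Hochberg adjusted p over all tested probes was under 0.05. The 75th percentile was 1103 to 2048 intensity units on the Aohan arrays and 1747 to 2309 on the small tail Han arrays. Between 10774 and 13418 probes were well above background on the Aohan arrays and between 11055 and 12965 on the small tail Han arrays. Repeated spots of a probe varied more on the Aohan arrays. Their median coefficient of variation was 10.12 to 18.33% there and 5.35 to 8.51% on the small tail Han arrays. Outlier spots numbered 45 to 51 on the Aohan arrays and 9 to 15 on the small tail Han arrays. This difference in quality falls together with breed and scan session. The hair follicle keratins KRT25, KRT27 and KRT35 and the epidermal gene SFN were well above background on every array. Skin is a mixture of cells, and fewer cells of a type cannot be told apart from less RNA per cell.

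Of the 7 carrier probes, 6 passed in this fit, with 4 above and 2 below the small tail Han level, while 15.2% of all tested probes passed, 7.57% as higher and 7.60% as lower in Aohan sheep. The same 6 probes had values that did not overlap between the breeds, as had 34.2% of the 12410 tested probes with a value on every array. Nothing is read from either count, because the genes were chosen on this contrast. Leaving out Aohan replicate 1 left 5 carrier probes, Aohan replicate 2 or Aohan replicate 3 left 4, small tail Han replicate 1 left 5, and small tail Han replicate 2 or small tail Han replicate 3 left 3. The calls over all tested probes shifted as well in these fits. They went from 767 of 12449 without small tail Han replicate 2 to 2239 of 11931 without small tail Han replicate 1. By the methods' t-test after adjustment 3 carrier probes passed, against 5.70% of all tested probes. Nothing is read from these counts either. Among the 6 probes that passed, the smallest absolute changes were those of SLC25A4, at -0.70, and SLC25A17, at 0.70, and the probe that did not pass was at 0.53. The largest change among solute carriers that did not pass was that of the peptide transporter SLC15A1, at -0.68.

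**Figure D1:**
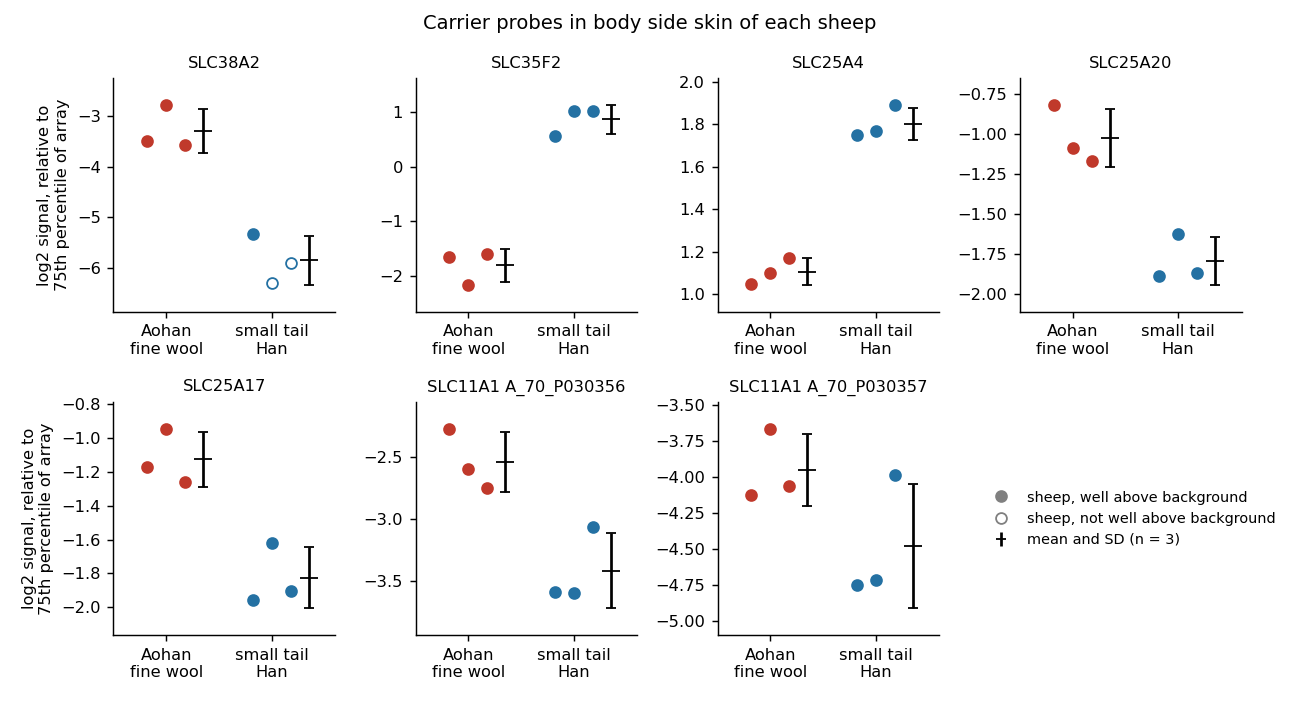
Log2 signal relative to the 75th percentile of the array (vertical axes, each with its own range and without a zero line) of the 7 carrier probes in each of 3 Aohan fine wool and 3 small tail Han sheep. Points are sheep in the order of their replicate numbers, open where the spot was not well above background, and bars are the mean and SD. The breeds overlap only at SLC11A1 A_70_P030357.

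SLC38A2, the amino acid transporter, had the largest positive difference of the 6 genes, and was also the one measured nearest to background. Its log2 signal was -3.51, -2.79 and -3.58 in Aohan sheep 1 to 3, against -5.34, -6.30 and -5.91 in small tail Han sheep 1 to 3. All 3 Aohan sheep lay above all 3 small tail Han sheep, with a gap of 1.76 between the lowest Aohan and the highest small tail Han value. The mean was -3.29 ± 0.43 in Aohan sheep and -5.85 ± 0.48 in small tail Han sheep (SD, n = 3 each), a change of 2.56 (SE 0.33), with no fold given because 2 of the 3 small tail Han spots were not well above background. In intensity units the spots gave 97.2, 295.3 and 94.8 in Aohan sheep, against 57.1, 23.4 and 29.1 in small tail Han sheep. The scanner software put the error of these spots at 12.9, 29.8 and 10.7 in Aohan sheep, against 7.86, 11.2 and 6.53 in small tail Han sheep. Only small tail Han replicate 1 was well above background in that breed. On small tail Han replicate 2 the raw spot stood at 103.5 over a local background of 52.5. The level in small tail Han sheep thus rests on spots close to background. With a background correction that adds an offset before the logarithm (normexp), the change was 1.09, with -2.70 ± 0.11 in Aohan sheep and -3.79 ± 0.67 in small tail Han sheep (SD, n = 3 each), and the breeds still did not overlap.

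Within each breed SLC38A2 was highest on the array with the most probes well above background, Aohan replicate 2 (13418 probes) and small tail Han replicate 1 (12965 probes). SLC35F2 was lowest on these same 2 arrays. Whether array quality had a part in these differences between sheep of 1 breed was not tested. Leaving out 1 array at a time kept the change of SLC38A2 between 2.31 and 2.81.

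ATF4, the transcription factor of the amino acid starvation response and the only gene of that list of 20 named on the array, had 3.88 ± 0.12 in Aohan sheep and 3.61 ± 0.09 in small tail Han sheep (SD, n = 3 each). Its change of 0.27 (SE 0.16) did not pass (limma, adjusted p = 0.304), although the breeds did not overlap. Of 27 other amino acid and peptide transporters listed, only SLC15A1 was named on the array. SLC15A1 had a change of -0.68 (SE 0.28, adjusted p = 0.144) at A_70_P051151 and -0.51 (SE 0.39, adjusted p = 0.429) at A_70_P051152. It passed at A_70_P051151 without small tail Han replicate 1 (adjusted p = 0.0240), and with normexp it passed at A_70_P051152 instead, at -0.76 (adjusted p = 0.0259). No other sodium-coupled amino acid transporter of the SLC38 family was named.

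SLC35F2 was much lower in Aohan sheep and was well above background on every array. Its difference and that of SLC38A2 were of like size in the main values, and their order turned with the authors' normalized values (-2.50 for SLC35F2 and 2.585 for SLC38A2). With normexp they were not of like size, at -2.22 for SLC35F2 and 1.09 for SLC38A2. The log2 signal of SLC35F2 was -1.66, -2.17 and -1.60 in Aohan sheep 1 to 3, against 0.57, 1.01 and 1.02 in small tail Han sheep 1 to 3. All 3 Aohan sheep were below all 3 small tail Han sheep, with a gap of 2.17, against a range of 0.56 within Aohan sheep and of 0.45 within small tail Han sheep. The mean was -1.81 ± 0.31 in Aohan sheep and 0.87 ± 0.26 in small tail Han sheep (SD, n = 3 each). This is a change of -2.68 (SE 0.20), or 6.40-fold lower in Aohan sheep. The spots read 348.0, 456.6 and 372.0 intensity units in Aohan sheep, against 3423, 3710 and 3538 in small tail Han sheep. The change lay between -2.83 and -2.50 when arrays were left out in turn.

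SLC25A4, the ADP and ATP carrier known for its high level in heart and skeletal muscle, was modestly lower in Aohan sheep, with little spread between sheep. Its log2 signal was 1.05, 1.098 and 1.17 in Aohan sheep 1 to 3, against 1.75, 1.77 and 1.89 in small tail Han sheep 1 to 3. The breeds did not overlap, and the gap of 0.58 was wider than the range of 0.12 within Aohan sheep and of 0.14 within small tail Han sheep. The mean was 1.11 ± 0.06 in Aohan sheep and 1.80 ± 0.08 in small tail Han sheep (SD, n = 3 each), a change of -0.70 (SE 0.14), or 1.62-fold lower. The other ADP and ATP carrier named on the array, SLC25A5, is the form of dividing and many other cells. SLC25A5 had 2.42, 2.86 and 2.60 in Aohan sheep, against 2.88, 2.60 and 2.56 in small tail Han sheep, and these values overlapped. Its change of -0.05 (SE 0.18) did not pass (adjusted p = 0.881), and the difference between the changes of SLC25A4 and SLC25A5 was not tested, because SLC25A4 was chosen on this contrast.

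Because SLC25A4 is a muscle form, skeletal muscle genes are set beside it. Of 26 muscle markers 5 were named on the array and tested. Of these 5, 0 passed in limma at the probe with the highest mean signal. At an unadjusted p under 0.05, 1 did, and PYGM, the muscle glycogen phosphorylase, passed the methods' t-test with a change of -0.35 (adjusted p = 0.0233 there and 0.270 in limma). The summed signal of the 5 genes was 0.306 to 0.375 times the 75th percentile in Aohan sheep and 0.311 to 0.386 times in small tail Han sheep. TNNC2, a troponin of fast muscle, had a change of -0.95 (SE 0.30, adjusted p = 0.0688) at A_70_P029962 and passed at A_70_P029961, with -1.37 (SE 0.32, adjusted p = 0.0219). At A_70_P029961 TNNC2 was well above background on 2 of 3 Aohan arrays and 3 of 3 small tail Han arrays. This call was lost with normexp (adjusted p = 0.471), and when Aohan replicate 3, small tail Han replicate 2 or small tail Han replicate 3 was left out. MYOD1, a regulator of muscle cell fate, had a change of -0.55 (adjusted p = 0.252). The other 2 genes had changes of the opposite sign, 0.25 for myoglobin, MB (adjusted p = 0.572), and 0.20 for the muscle regulator MYOG (adjusted p = 0.579). The values of 3 of the 5 genes, TNNC2, MYOD1 and PYGM, did not overlap between the breeds and were lower in Aohan sheep. Over all tested probes with 6 values, 34.2% did not overlap. MB had the highest mean signal of the 5 genes and so weighs most in their sum. The median change over the 5 muscle genes was -0.35, against 0.02 over all tested probes. Whether muscle in the samples had a part in the SLC25A4 difference was not tested.

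SLC25A20, which carries acylcarnitines into mitochondria for oxidation, was higher in Aohan sheep. Its log2 signal was -0.82, -1.08 and -1.17 in Aohan sheep 1 to 3, against -1.89, -1.62 and -1.87 in small tail Han sheep 1 to 3. The lowest Aohan value lay 0.46 above the highest small tail Han value. The mean was -1.02 ± 0.18 in Aohan sheep and -1.80 ± 0.15 in small tail Han sheep (SD, n = 3 each), a change of 0.77 (SE 0.17), or 1.71-fold. The unscaled spots did not separate in this way, with 625.4, 966.9 and 503.3 intensity units in Aohan sheep, against 623.3, 595.9 and 477.5 in small tail Han sheep. The separation thus appears after each array is set to its own 75th percentile. The enzymes that load fatty acids onto carnitine, CPT1A and CPT1B, were the only 2 genes named on the array in a list of 24 for the carnitine shuttle and fatty acid oxidation, and neither passed. CPT1A had a change of 0.26 (SE 0.20, adjusted p = 0.426) and CPT1B one of -0.20 (SE 0.20, adjusted p = 0.546). At an unadjusted p under 0.05 the count was also 0, and 0 by the methods' t-test.

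SLC25A17, a carrier of the peroxisome membrane, was likewise higher in Aohan sheep. Its log2 signal was -1.17, -0.95 and -1.26 in Aohan sheep 1 to 3, against -1.96, -1.62 and -1.90 in small tail Han sheep 1 to 3. The breeds did not overlap, with a gap of 0.36. The mean was -1.13 ± 0.16 in Aohan sheep and -1.83 ± 0.18 in small tail Han sheep (SD, n = 3 each), a change of 0.70 (SE 0.17), or 1.62-fold. As for SLC25A20, the unscaled intensities overlapped, at 489.9, 1062 and 472.0 in Aohan sheep, against 595.5, 597.9 and 467.1 in small tail Han sheep. None of the 28 other peroxisome genes listed was named on the array, so SLC25A17 stands here without other genes of its organelle.

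None of the other mitochondrial genes listed passed. Of 20 other mitochondrial carriers and channels listed, 5 were named on the array and 4 were tested. In limma 0 passed, with 1 at an unadjusted p under 0.05 and 0 by the methods' t-test. VDAC1, a channel of the outer mitochondrial membrane, had -0.95 ± 0.25 in Aohan sheep and -1.56 ± 0.37 in small tail Han sheep (SD, n = 3 each). Its values did not overlap between the breeds, and its change of 0.61 (SE 0.22) did not pass (adjusted p = 0.0990), but did without small tail Han replicate 1 (adjusted p = 0.0206). SLC25A11, the oxoglutarate carrier, had a change of 0.07 (adjusted p = 0.843), and SLC25A10, the dicarboxylate carrier, had no array with a spot well above background. The 3 ATP synthase subunits tested did not pass either, with 0 at an unadjusted p under 0.05 and 0 by the methods' t-test. Among these, ATP5MC1 had a change of -0.18 (adjusted p = 0.580) and ATP5MC2 one of 0.18 (adjusted p = 0.709). The median change over the 2 carnitine genes was 0.03. It was 0.06 over the 4 carriers and channels and 0.13 over the 3 subunits, against 0.02 over all tested probes.

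SLC11A1, the metal carrier of macrophage phagosomes, was the only gene of the 6 with 2 probes. Both probes were higher in Aohan sheep on average, but the breeds overlapped at A_70_P030357. At A_70_P030356 its log2 signal was -2.28, -2.60 and -2.75 in Aohan sheep 1 to 3, against -3.59, -3.59 and -3.06 in small tail Han sheep 1 to 3. All 3 Aohan sheep lay above all 3 small tail Han sheep here, by a gap of 0.32. As for SLC25A20 and SLC25A17, the unscaled intensities overlapped. They were 227.4, 337.5 and 168.1 in Aohan sheep, against 192.1, 152.6 and 208.9 in small tail Han sheep. At A_70_P030357 the log2 signal was -4.12, -3.66 and -4.06 in Aohan sheep 1 to 3, against -4.75, -4.71 and -3.98 in small tail Han sheep 1 to 3. Here small tail Han replicate 3 lay above Aohan replicates 1 and 3, and the breeds overlapped. The means at A_70_P030356 were -2.54 ± 0.24 in Aohan sheep and -3.41 ± 0.30 in small tail Han sheep (SD, n = 3 each), a change of 0.87 (SE 0.22). At A_70_P030357 they were -3.95 ± 0.25 in Aohan sheep and -4.48 ± 0.43 in small tail Han sheep (SD, n = 3 each), a change of 0.53 (SE 0.28). Small tail Han replicate 3 was the highest of its breed at both probes, and without it the changes were 1.05 and 0.78. With normexp the changes were 0.33 and 0.30.

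A correction for uneven brightness over the array surface was recorded for all 3 Aohan arrays and for small tail Han replicate 1, but not for small tail Han replicates 2 and 3. At the spot of SLC11A1 A_70_P030356 it raised the log2 signal by 0.55, 0.35 and 0.39 in Aohan sheep 1 to 3, against 0.32, 0 and 0 in small tail Han sheep 1 to 3. At A_70_P030357 it moved the signal the other way, by -0.40, -0.23 and -0.22 in Aohan sheep, against -0.13, 0 and 0 in small tail Han sheep. Without this correction the change of SLC11A1 was 0.57 at A_70_P030356, where the breeds then overlapped, and 0.79 at A_70_P030357, where they then did not. The 2 probes therefore exchanged places, while both stayed higher in Aohan sheep on average. For the other genes the changes without it were 2.55 for SLC38A2, -2.41 for SLC35F2, -0.51 for SLC25A4, 0.83 for SLC25A20 and 0.98 for SLC25A17, and none of these overlapped between the breeds.

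**Figure D2:**
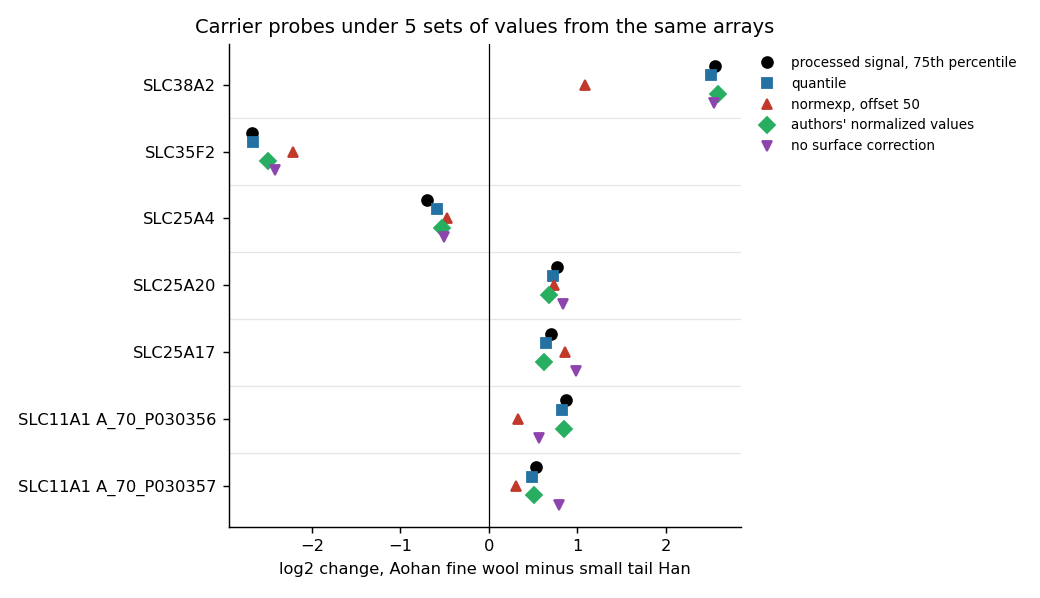
Log2 change (Aohan minus small tail Han, horizontal axis) of the 7 carrier probes from 5 sets of values of the same 6 arrays: the scaled processed signal, quantile normalization, normexp, the authors' normalized values and the signal without surface correction. Every point lies on the side of its probe's first value, and SLC38A2 goes down to 1.09 and SLC11A1 A_70_P030356 to 0.33 with normexp.

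Macrophage and myeloid markers are set beside SLC11A1, whose known place is the macrophage. Of 30 markers 10 were named on the array and 9 were tested, of which 2 rose in Aohan sheep, 0 fell and 7 did not pass, beside 7.57% higher and 7.60% lower over all tested probes. ITGB2, the integrin chain shared by leukocytes, rose by 0.95 (SE 0.18, adjusted p = 0.0108) at A_70_P030172 and by 0.70 (SE 0.17, adjusted p = 0.0284) at A_70_P030171. The receptor PLAUR rose by 1.36 (SE 0.36, adjusted p = 0.0364), well above background on 2 of 3 arrays of each breed. With normexp PLAUR did not pass (adjusted p = 0.394). It was lost when replicate 2 or 3 of either breed was left out, as was ITGB2 at A_70_P030171 in the same 4 leave-outs. At A_70_P030172 ITGB2 was lost once, with small tail Han replicate 2 left out (adjusted p = 0.0563). The Fc receptor FCGR1A had 0.55 (adjusted p = 0.106) and the integrin ITGAM 0.88 (adjusted p = 0.377). The macrophage genes CD14, TLR2 and TLR4 had changes of 0.19, -0.05 and -0.11 and did not pass (adjusted p = 0.721, 0.901 and 0.758), with -0.31 at the other CD14 probe (adjusted p = 0.420). The summed signal of the 9 genes was 2.66 to 3.50 times the 75th percentile in Aohan sheep and 2.14 to 2.45 times in small tail Han sheep. These ranges did not overlap, but they do overlap when ITGB2 is left out of the sum. The values of 3 of the 9 genes did not overlap, beside 34.2% of the tested probes with 6 values. The median change of the list was 0.30, against 0.02 over all tested probes. Whether more macrophages or other myeloid cells in Aohan skin had a part in the SLC11A1 difference was not tested.

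**Figure D3:**
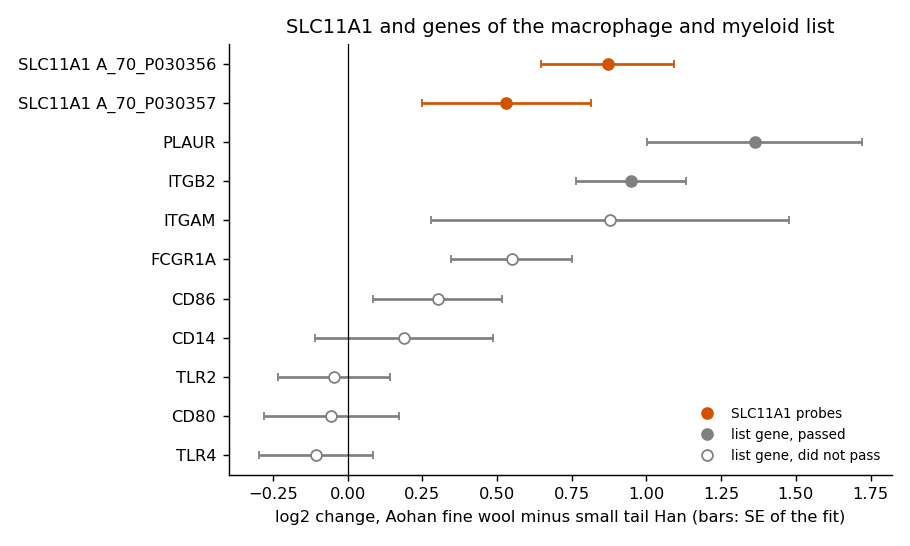
Log2 change (Aohan minus small tail Han, horizontal axis, bars are the SE of the fit) of the 2 SLC11A1 probes and of the 9 tested genes of the macrophage and myeloid list. PLAUR and ITGB2 passed, while CD14, TLR2 and TLR4 lie within 0.19 of 0.

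Genes of iron, zinc and copper handling gave the metal context of SLC11A1. Of 27 listed, 5 were named on the array and 4 were tested. Of these 4, 1 rose, 0 fell and 3 did not pass, beside 7.57% higher and 7.60% lower over all tested probes. The gene that rose was LTF, lactoferrin, an iron-binding protein of secretions and neutrophils, with 0.74 ± 0.29 in Aohan sheep and -1.90 ± 0.41 in small tail Han sheep (SD, n = 3 each), a change of 2.64 (SE 0.24, adjusted p = 0.000201). ATP7B, a copper pump, had a change of -0.72 (SE 0.23, adjusted p = 0.0698) at A_70_P039766 and -0.30 (adjusted p = 0.498) at its other probe. MT3, a metallothionein, had 0.15 (adjusted p = 0.746), and the median of the 4 genes was 0.0041. FTH1, the ferritin heavy chain, had -0.15 (adjusted p = 0.793). The zinc transporters SLC39A3, SLC39A7 and SLC39A13 had changes of 0.15, -0.04 and -0.16 and did not pass (adjusted p = 0.612, 0.888 and 0.646).

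Outside the 6 genes, 2 named solute carriers passed, SLC5A1 and SLC2A5. Of 19 others with a RefSeq name 18 were tested, at 25 probes, with 1 higher, 1 lower and 16 that did not pass, beside 7.57% higher and 7.60% lower over all tested probes. The values of 2 of the 18 did not overlap, beside 34.2% of the tested probes with 6 values. The median change was 0.0016 over the 18 genes, against 0.02 over all tested probes. The sodium and glucose cotransporter SLC5A1 rose by 1.83 (SE 0.28, adjusted p = 0.00378) at A_70_P039666 and by 1.41 (SE 0.26, adjusted p = 0.00940) at A_70_P039667. The fructose transporter SLC2A5 fell by 2.43 (SE 0.22, adjusted p = 0.000217) at A_70_P051036 and by 2.70 (SE 0.30, adjusted p = 0.000666) at A_70_P051037. Both genes and LTF passed in all 6 leave-outs, while SLC5A1 did not pass the methods' t-test (adjusted p = 0.0593 at A_70_P039666). With normexp the change of SLC5A1 was 0.96 at A_70_P039666, which passed (adjusted p = 0.0217), and 0.69 at A_70_P039667, which did not (adjusted p = 0.133). The largest changes that did not pass, beside SLC15A1, were those of the prostaglandin transporter SLCO2A1, at -0.56 (adjusted p = 0.282), the mitochondrial pyrimidine nucleotide carrier SLC25A33, at 0.50 (adjusted p = 0.163), and the potassium and chloride cotransporter SLC12A4, at -0.46 (adjusted p = 0.179). With normexp SLC25A33 passed at 0.61 (adjusted p = 0.0367), and SLC12A4 passed without Aohan replicate 2 (adjusted p = 0.0339).

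**Figure D4:**
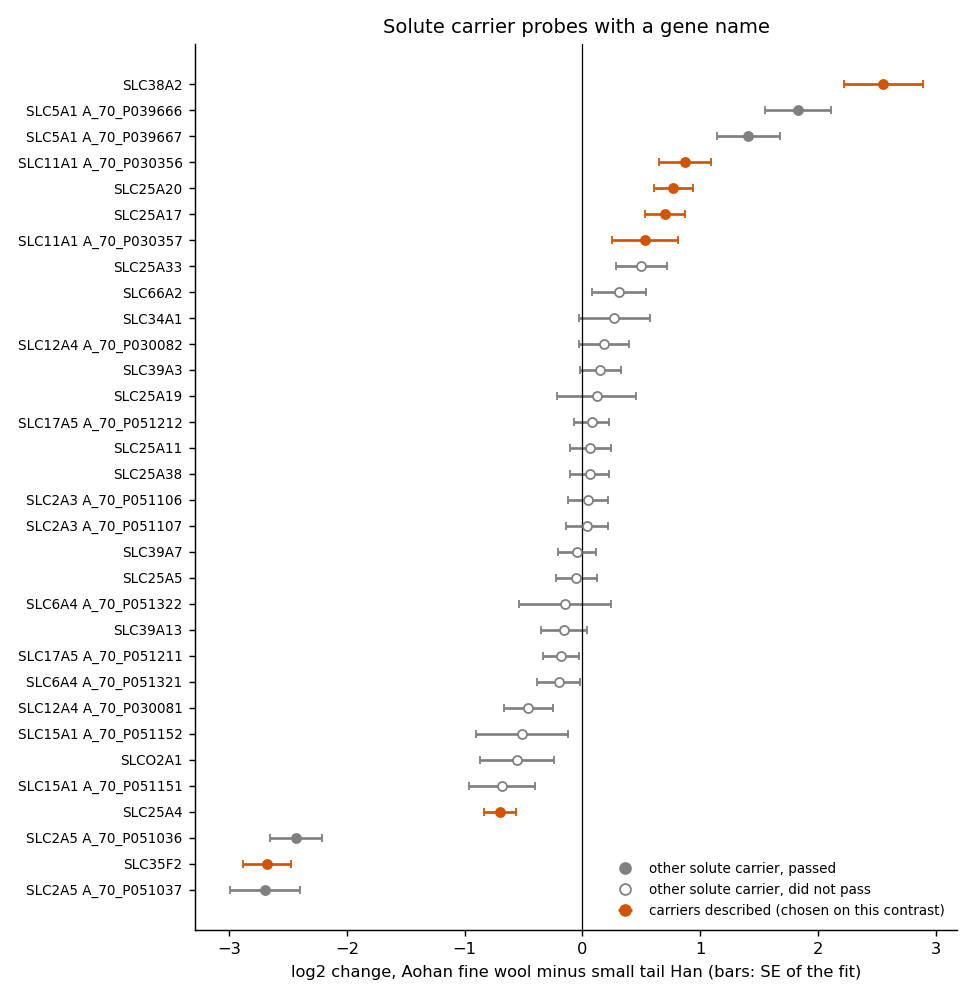
Log2 change (Aohan minus small tail Han, horizontal axis, bars are the SE of the fit) of 32 tested probes of solute carriers, sorted by change. The 7 carrier probes described (orange) were chosen on this contrast, SLC5A1 and SLC2A5 passed among the others (filled grey), and the rest (open) lie between -0.68 and 0.50.

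The genes whose signal followed each carrier most closely over the 6 arrays were taken from about 610 named probes by Pearson's r, as a description. The arrays share the breed difference for which the carriers were chosen, so r was also taken after each breed's mean was removed. SLC38A2 was followed by SLC5A1 (r = 0.9985, and 0.996 without the breed means), LTF (0.997 and 0.985) and the immunoproteasome subunit PSMB8 (0.994 and 0.985). The 3 genes were picked on the same 6 arrays, and over 12410 probes the deviations of Aohan replicate 2 and small tail Han replicate 1, where SLC38A2 was highest in its breed, correlated at 0.47. SLC35F2 was nearest to the lipid antigen presenter CD1D (0.996 and 0.864), the xenobiotic enzyme CYP1A1 (0.996 and 0.890) and SLC2A5 (0.995 and 0.860). SLC25A4 was nearest to DGAT1, the last enzyme of triglyceride synthesis (0.9945 and 0.913), CD1D (0.9945 and 0.785) and the glycogen phosphorylase PYGB (0.983 and 0.560). SLC25A20 was followed by the histone chaperone ASF1A (0.993 and 0.953), the activin receptor ACVR2A (0.990 and 0.980) and the splicing protein SNRPA (0.984 and 0.846). SLC25A17 had looser neighbours in NFKBIA, the inhibitor of NF-kappaB (0.962 and 0.692), the chemokine CXCL8 (0.954 and 0.606) and the transcription factor TFAP2A (0.949 and 0.538). SLC11A1 at A_70_P030356 was nearest to the lymphocyte chemokine XCL1 (0.987 and 0.961), the T cell receptor chain CD3E (0.981 and 0.906) and BGLAP, osteocalcin (0.978 and 0.901). At A_70_P030357 the nearest were OVAR (0.972 and 0.949), LOC443441 (0.944 and 0.975) and the cytokine IL7 (0.933 and 0.890), and no gene was among the nearest 3 of both SLC11A1 probes.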

How the data were processed

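Per the file headers, spot intensities were read by the authors with Feature Extraction (Agilent, version 10.5.1.1). The deposited intensity values are background-subtracted Cy3 signals with no normalization between arrays. For the same arrays the authors also deposited a matrix of normalized log2 values, whose method is not given in the sources used here. Its columns correlated with the scanner values at 0.996 to 0.999 and had medians of 8.31.

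Control spots and spots marked as outliers were dropped, log2 intensities of a probe's spots were averaged, and each array's 75th percentile was subtracted. A probe was tested if it stood well above background on 3 or more of the 6 arrays and had 2 or more values in each breed. The two-sided test was limma 3.58.1 in R 4.3.3, moderated with a trend on mean signal. The number of arrays limits the precision. P-values measure the spread between sheep of a breed only. Names came from RefSeq accessions found in the sheep reference ARS-UI_Ramb_v3.0 for 734 of 758 such probes. Most of the 15008 probes thus had no gene name, and a gene not named here may still have a probe among them. In gene lists each gene stands at its tested probe of highest mean signal. No sequences of the probes or proteins were used here, and no genome positions are given because the array files name no build.

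The carriers and lists were chosen with earlier results of these data known. The text names the 6 carriers, other solute carriers that passed or had the 4 largest changes, in each list the genes that passed and the 2 of smallest p among the rest, and the 3 genes most like each carrier. CD14, TLR2, TLR4, FTH1, PYGM, MB, MYOG, SLC25A5, SLC25A10 and the zinc transporters were added after their values were seen. The alternatives were quantile normalization, normexp (offset 50) on median spot signals, the series matrix values, a t-test as in the study's methods (the methods' t-test), here with Benjamini-Hochberg adjustment in place of the study's permutation-based false discovery rate, the replicate number as a block, a fit without the trend, 2 other filters, and 6 fits with 1 array left out. The signal without surface correction was added after seeing the data. The study's own fold changes and p-values were not used. Tables were handled in Python 3.11.15 with pandas 2.3.3, and plots made by matplotlib 3.10.9.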

Additional observations from a re-analysis of the deposited data

How the results depend on the processing

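Every carrier change kept its direction under the alternatives in which its probe was tested. SLC38A2 was not tested when all 6 arrays had to be well above background. It met the main filter with 3 Aohan arrays and 1 small tail Han array. With normexp the change moved by more than the spread between sheep to 1.09 for SLC38A2, -2.22 for SLC35F2, -0.47 for SLC25A4 and 0.33 for SLC11A1 A_70_P030356. SLC25A4 also moved to -0.58 with quantile normalization, -0.53 with the series matrix values and -0.51 without surface correction, which moved SLC25A17 to 0.98 and SLC11A1 A_70_P030356 to 0.57. The cause was not tested. Without 1 array at a time the ranges were 2.31 to 2.81 for SLC38A2, -2.83 to -2.50 for SLC35F2, -0.73 to -0.65 for SLC25A4, 0.67 to 0.86 for SLC25A20, 0.61 to 0.80 for SLC25A17, and 0.74 to 1.05 and 0.39 to 0.78 for the SLC11A1 probes A_70_P030356 and A_70_P030357. The methods' t-test passed 3 carrier probes, beside 712 of 12481 tested probes. Leaving out 1 array passed 3 to 5, beside 767 of 12449 to 2239 of 11931 tested probes. With normexp 4 of the 7 carrier probes passed, beside 1722 of 12481 tested probes, and SLC25A4 and both SLC11A1 probes did not. When all 6 arrays had to be well above background, 5 of 6 carrier probes passed, beside 1764 of 10303 tested probes. Nothing is read from the counts of carrier probes under any alternative, because the carriers were chosen on this contrast. Over the whole table, probes higher in Aohan sheep numbered 945 and lower 948, against 321 and 391 with the t-test after adjustment (712 in all, 3234 unadjusted), and 340 to 1224 and 427 to 1015 without 1 array.

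Other solute carriers passed as higher were 2 with normexp and 0 with the t-test, and lower 1 to 2 without 1 array. Myeloid genes passed as higher were 1 with normexp, 1 when all 6 arrays had to be well above background, 0 with the t-test and 0 to 2 without 1 array. In the muscle list 1 gene passed as lower with quantile normalization, 1 with the series matrix values and 1 with the t-test. Without 1 array the mitochondrial list had 0 to 1 higher and the metal list 0 to 1 lower, VDAC1 and ATP7B without small tail Han replicate 1.

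The labels number the sheep 1 to 3 in both breeds, and nothing in them says that a number is shared. Deviations of same-numbered arrays from their breed means correlated at -0.22, -0.37 and 0.28 over 12410 probes. Only replicate 3 of each breed correlated best with its own number. These correlations are a description and do not settle whether the numbers pair the sheep. With the replicate number as a block, 565 probes passed as higher and 669 as lower, and 2 carrier probes passed. The dim spots of SLC38A2 and of SLC11A1 A_70_P030357 limit the precision of their changes.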

Other observations

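Lists for other cell types of skin held few named genes, and none passed in limma at the probe standing for the gene, at an unadjusted p under 0.05 (0 in each list) or by the methods' t-test (0 in each). Of the 4 keratinocyte and follicle genes tested, KRT27 had a change of -0.10 (SE 0.33, adjusted p = 0.875) and KRT35 one of 0.08 (SE 0.28, adjusted p = 0.879), with summed signals of 606 to 1114 times the 75th percentile in Aohan sheep and 723 to 994 times in small tail Han sheep. Of the 4 fibroblast genes, MMP2 had -0.18 (SE 0.17, adjusted p = 0.532) and BGN 0.16 (SE 0.16, adjusted p = 0.551). Of the 3 adipocyte genes, PLIN1 had -0.20 (SE 0.26, adjusted p = 0.656) and PPARG 0.04 (SE 0.23, adjusted p = 0.932). At A_70_P014632, the other probe of PLIN1, the change was -0.50 (adjusted p = 0.121), and -0.78 with normexp, which passed (adjusted p = 0.00173). The median change was 0.0084 over the keratinocyte, 0.033 over the fibroblast and 0.014 over the adipocyte genes. Summed signals were 175 to 291 times in Aohan sheep and 199 to 295 times in small tail Han sheep for fibroblast genes, and 6.64 to 11.6 times in Aohan sheep and 7.64 to 10.51 times in small tail Han sheep for adipocyte genes.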
